A study of Mus musculus with 12 samples.

Results

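Lymphoid-biased haematopoietic stem cells (Ly-HSCs) from old mice were compared with those from young mice, using the 3 old and 3 young Ly-HSC libraries among the 12 RNA-seq libraries of the study. All mice were female C57BL6J, with no genetic change or treatment named in the labels. The 3 libraries of each age came from separate groups of mice, per the labels. The old mice were 18 months old and came from the National Institute on Aging colony. The young mice were 8 to 10 weeks old in the sample labels, with 12 weeks as the upper bound in the protocol, and came from another vendor or the university's own facility, so age and animal source cannot be told apart. Ly-HSCs were sorted as marrow cells that lack lineage markers, carry Sca-1 and c-kit, lack CD48 and CD135 and stain weakly for CD150. The other 6 libraries, 3 young and 3 old, came from My-HSCs, the strongly CD150-stained myeloid-biased fraction, and served here to estimate the spread and to set the age difference beside that of the other fraction. Of 14143 genes in the deposited table, 10067 reached 1 FPKM (fragments scaled to the length of the transcript and to the total of the library) in at least 3 of the 6 Ly-HSC libraries and were tested.

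Haematopoietic stem cells renew themselves in the bone marrow and give rise to all blood lineages, and most of them divide rarely. Strong surface CD150 goes with a stem cell output rich in myeloid cells and platelets, and weak CD150 with a more lymphoid output. Ageing is known to enlarge the CD150-high pool, to lower lymphoid output and to raise a recurrent set of transcripts in stem cells, among them adhesion, retinoid and inflammatory genes.

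FPKM summed to between 211455 and 228391 per library, and sequencing depth is not known from this unit. The share of genes listed at exactly 0 was 25.04% to 34.1% in the young and 13.3% to 22.3% in the old Ly-HSC libraries. On the log2(FPKM + 1) scale the young libraries correlated with each other at Pearson r of 0.652 to 0.745 across genes and the old ones at 0.830 to 0.947, while pairs of different age lay at 0.636 to 0.846. Young library 1 stood apart from the other 5 along the first principal component (45% of the variance). Values below are given in the order of libraries 1, 2 and 3. A log2 fold change is old minus young on the log2(FPKM + 1) scale with its standard error, and adjusted p is limma's, with Benjamini-Hochberg adjustment over all tested genes, called under 0.05.

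Old Ly-HSCs differed from young ones at 38 called genes, 0.377% of those tested. Of these, 37 rose with age (0.368%) and Dtnbp1 fell (0.00993%). The genes that rose came from several groups: enzymes of retinoid, phospholipid and purine metabolism, receptors and transporters better known from neurons, interferon-inducible GTPases and antigen presentation proteins, and proteins of the mitotic chromosome. In 17 of the 38 genes all 3 young libraries were below 1 FPKM, and 4 of these were listed at 0 in each of them. These 17 genes reached the level needed for testing only through the old libraries. Only 4 called genes were at 20 FPKM or more in all 6 libraries: Cd74, Plek, H2-Q7 and Dtnbp1. In all 38 the ages did not overlap, against 10.5% of tested genes with every old library above every young one and 4.82% with every old library below. The 38 were picked by the p-value of this same age difference, so their lack of overlap is no separate evidence. The plot of called genes by library shows the genes named here.

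**Figure D1:**
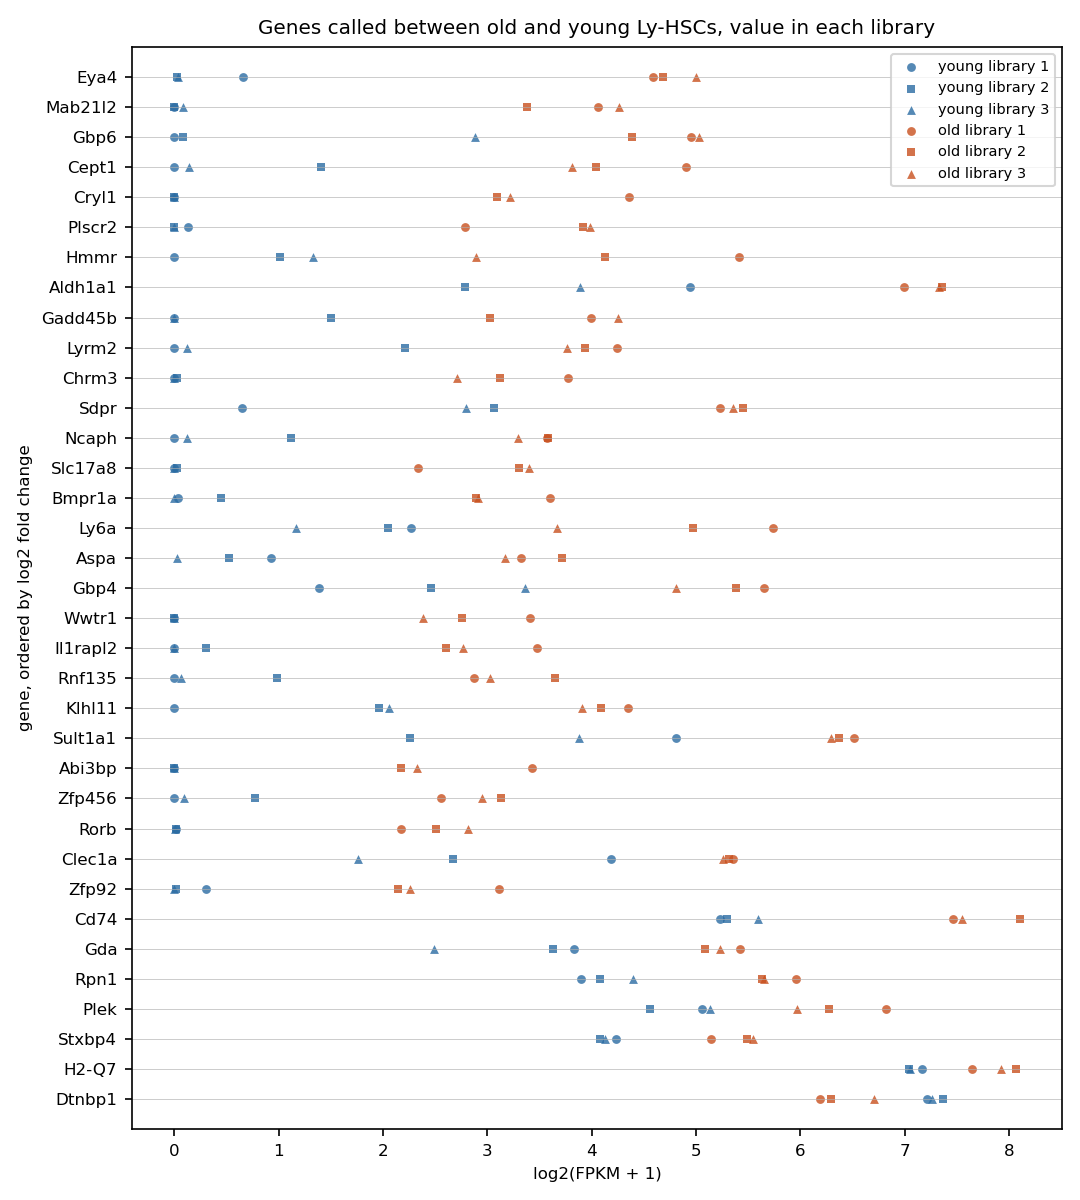
Level of each called gene named in the text in each Ly-HSC library, as log2(FPKM + 1), young in blue and old in orange, with the marker shape giving the library number. In every gene shown but Dtnbp1 the 3 old libraries lie to the right of the 3 young ones, and in Dtnbp1 they lie to the left.

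The count depended on the spread assumed and on the libraries used. Within groups the median standard deviation of log2(FPKM + 1) was 0.70 in young and 0.33 in old Ly-HSCs. In young and old My-HSCs it was 0.41 and 0.26. The main fit shared 1 spread over all groups. Its standard errors for Ly-HSCs thus do not carry the wider spread of young Ly-HSCs in full, which makes its adjusted p-values more lenient. The 6 Ly-HSC libraries alone gave 0 called genes by limma (844 at an unadjusted p under 0.05), a weight for each group gave 7, and the share of genes at 0 as a covariate gave 0 (1130 at an unadjusted p under 0.05). When young libraries 1, 2 and 3 of the Ly-HSCs were dropped in turn, 63, 247 and 117 genes passed, which held 32, 38 and 35 of the 38. Dropping the old libraries in turn left 9, 7 and 11, all among the 38. Of the 38, dropping the young My-HSC libraries in turn left 37, 17 and 19, and dropping the old ones left 16, 14 and 14. Cd74, Eya4, Mab21l2, Aldh1a1, Cept1 and Rpn1 passed in each of the 6 fits that left out 1 Ly-HSC library, and each of the other 32 called genes was lost in at least 1 of them.

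Among these 6 genes, Eya4 encodes a transcriptional coactivator with phosphatase activity, Mab21l2 a protein of eye and body wall development, Aldh1a1 a retinaldehyde dehydrogenase that makes retinoic acid, and Cept1 an enzyme of the last step of phosphatidylcholine and phosphatidylethanolamine synthesis. Their promoters are shown because they are the called genes with the smallest adjusted p that have a RefSeq promoter entry on the chromosomes used here. Each sequence is the 200 bases before the RefSeq transcription start on GRCm38.p6, 5′ to 3′ on the strand of the gene, with motif matches in capitals.
Eya4 chr10:23349944-23350143 (minus strand): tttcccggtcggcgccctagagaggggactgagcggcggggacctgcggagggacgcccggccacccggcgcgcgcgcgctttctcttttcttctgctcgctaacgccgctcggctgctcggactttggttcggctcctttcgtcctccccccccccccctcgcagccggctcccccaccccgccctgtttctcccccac
Mab21l2 chr3:86548284-86548483 (minus strand): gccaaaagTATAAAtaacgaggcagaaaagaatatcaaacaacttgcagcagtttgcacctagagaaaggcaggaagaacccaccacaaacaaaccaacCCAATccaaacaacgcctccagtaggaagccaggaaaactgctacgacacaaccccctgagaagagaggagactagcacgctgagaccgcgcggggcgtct
Aldh1a1 chr19:20492383-20492582 (plus strand): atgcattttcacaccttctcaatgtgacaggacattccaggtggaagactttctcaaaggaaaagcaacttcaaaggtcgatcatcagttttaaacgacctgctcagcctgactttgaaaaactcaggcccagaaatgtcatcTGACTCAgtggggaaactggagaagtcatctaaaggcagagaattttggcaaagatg
Cept1 chr3:106547803-106548002 (minus strand): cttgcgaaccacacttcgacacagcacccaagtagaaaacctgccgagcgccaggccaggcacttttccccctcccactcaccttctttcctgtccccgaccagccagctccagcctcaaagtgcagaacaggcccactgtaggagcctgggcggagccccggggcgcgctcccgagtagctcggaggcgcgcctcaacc
The motifs searched on both strands were the TATA box (TATAAA), the CCAAT box (CCAAT), AP-1 (TGANTCA), the interferon-stimulated response element (ISRE, GAAA, any 2 bases and GAAA) and the interferon-gamma activated site (GAS, TTCNNNGAA), among others, where N is any base. The Mab21l2 window held a TATA box starting 192 bases before the start and a CCAAT box further downstream, and the Aldh1a1 window an AP-1 match starting 57 bases before it. The Eya4 and Cept1 windows held none of the motifs searched. They held 24 and 13 CpG dinucleotides, against 2 in Aldh1a1 and a median of 14 over the promoters of tested genes. A TATA box was in 10.5% and an AP-1 match in 5.52% of 27025 RefSeq promoters of this length. Among the promoters of tested genes these shares were 3.9% and 2.92%. Of the 37 genes that rose, 27 had a promoter entry, and 40.7% of those held a CCAAT box, against 33.2% of the promoters of tested genes. No motif was common to the 4 windows.

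Eya4 stood at 0.584, 0.0184 and 0.0228 FPKM in young and 23.01, 24.7 and 30.9 FPKM in old cells (log2 fold change 4.51 ± 0.46, adjusted p = 0.00115). Aldh1a1 stood at 29.8, 5.89 and 13.8 FPKM in young and 127, 163 and 160.1 FPKM in old cells (log2 fold change 3.35 ± 0.41, adjusted p = 0.00409). Mab21l2 was at 0, 0 and 0.0572 FPKM in young and 15.7, 9.43 and 18.2 FPKM in old cells (log2 fold change 3.88 ± 0.47, adjusted p = 0.00409). Eya4 and Mab21l2 were near 0 in young cells, whereas Aldh1a1 had a measurable level at both ages. For Cept1 the libraries held 0, 1.65 and 0.107 FPKM in young and 28.95, 15.5 and 13.02 FPKM in old cells (log2 fold change 3.73 ± 0.47, adjusted p = 0.00428). In each of these 4 genes the lowest old library was far above the highest young one.

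Rpn1 encodes ribophorin I, a subunit of the oligosaccharyltransferase that attaches N-linked glycans in the endoplasmic reticulum. It stood at 13.9, 15.9 and 20.1 FPKM in young and 61.2, 48.5 and 49.4 FPKM in old cells (log2 fold change 1.62 ± 0.21, adjusted p = 0.00429). No library was near 0, and every old library was above every young one by a wide margin. Rpn1 (ENSMUSG00000030062.7) lies on chromosome 6 from 88084482 to 88105304 of GRCm38 (GENCODE M21 annotation, which gives all gene positions here). In My-HSCs it stood at 37.03, 41.7 and 38.6 FPKM in young and 56.3, 63.2 and 73.4 FPKM in old cells. Young Ly-HSCs were thus below both ages of My-HSCs for this gene, while old Ly-HSCs lay within the range of My-HSCs.

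Several called genes encode receptors, transporters and adhesion proteins that are best known outside blood. Chrm3, the muscarinic acetylcholine receptor M3, stood at 0, 0.0174 and 0 FPKM in young and 12.6, 7.70 and 5.56 FPKM in old cells (log2 fold change 3.19 ± 0.43, adjusted p = 0.00759). Slc17a8, the vesicular glutamate transporter VGLUT3, stood at 0, 0.0167 and 0 FPKM in young and 4.04, 8.89 and 9.56 FPKM in old cells (log2 fold change 3.00 ± 0.43, adjusted p = 0.0125). In both genes the young libraries were at or next to 0 and the old libraries were at measurable levels throughout. Il1rapl2, a relative of the interleukin-1 receptor accessory protein, stood at 0, 0.233 and 0 FPKM in young and 10.1, 5.07 and 5.80 FPKM in old cells (adjusted p = 0.0437). Abi3bp, an extracellular matrix protein, was listed at 0 in all 3 young libraries, while the old stood at 9.75, 3.52 and 4.03 FPKM (adjusted p = 0.0346). The lectin receptor Clec1a had a measurable level at both ages, at 17.2, 5.39 and 2.40 FPKM in young and 39.9, 38.8 and 37.2 FPKM in old cells (log2 fold change 2.43 ± 0.44, adjusted p = 0.0386). Its old libraries lay close together, and its young libraries were widely spread. Chrm3 lies on chromosome 13 from 9875486 to 10360847, Slc17a8 on chromosome 10 from 89574020 to 89621253 and Clec1a on chromosome 6 from 129424772 to 129452000.

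Transcription regulators formed a further group. Rorb, an orphan nuclear receptor of the retinoid-related family, stood at 0.0137, 0.0138 and 0.00856 FPKM in young and 3.51, 4.68 and 6.03 FPKM in old cells (log2 fold change 2.48 ± 0.42, adjusted p = 0.0299). Wwtr1, which encodes TAZ, a coactivator held in check by the Hippo kinases, was likewise listed at 0 throughout the young libraries, while the old stood at 9.59, 5.76 and 4.22 FPKM (adjusted p = 0.0286). The zinc finger genes Zfp456 and Zfp92, members of a large and closely related family, stood at 0, 0.712 and 0.0678 FPKM in young and 4.87, 7.78 and 6.75 FPKM in old cells and at 0.232, 0.0117 and 0 FPKM in young and 7.64, 3.44 and 3.78 FPKM in old cells (adjusted p = 0.0312 and 0.0437). The young libraries of all 4 genes were below 1 FPKM, so that each rise was from a level near 0. Bmpr1a, which binds bone morphogenetic proteins and signals through Smads, was called too, at 0.0251, 0.367 and 0 FPKM in young and 11.1, 6.44 and 6.52 FPKM in old cells (log2 fold change 2.97 ± 0.44, adjusted p = 0.0148). The list of receptors and Smads around it did not move together: of 21 tested members (of 27 in the table) 11 had a higher mean in old cells, and their median difference was 0.00 on the log2 scale, against 0.16 over all tested genes. Within that list Smad4, the shared partner of receptor-activated Smads, was lower in every old library, at 33.5, 31.7 and 39.9 FPKM in young and 14.997, 24.7 and 17.7 FPKM in old cells (log2 fold change -0.86 ± 0.25, adjusted p = 0.166), and did not pass.

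Metabolic enzymes made up another group. Sult1a1, a phenol sulfotransferase, stood at 27.1, 3.79 and 13.8 FPKM in young and 90.5, 81.5 and 77.6 FPKM in old cells (log2 fold change 2.74 ± 0.52, adjusted p = 0.0437). Here too the young libraries were widely spread and the old ones close together. Aspa, which splits N-acetylaspartate, stood at 0.902, 0.442 and 0.0161 FPKM in young and 8.99, 12.1 and 8.03 FPKM in old cells (log2 fold change 2.91 ± 0.52, adjusted p = 0.0347). Gda, guanine deaminase, and Cryl1, a gulonate dehydrogenase, were called as well (adjusted p = 0.0154 and 0.0386). Cryl1 was another gene listed at 0 in all 3 young libraries, and its old libraries held 19.5, 7.55 and 8.31 FPKM. For Aldh1a1 the retinoid list gave no common direction, with 6 of 11 tested members (of 18 in the table) higher and a median of 0.52, which was -0.21 without young library 2. Among its members the retinal reductase Dhrs3 stood at 0, 3.74 and 0 FPKM in young and 9.39, 9.90 and 10.96 FPKM in old cells and the retinoic acid receptor Rarb at 2.85, 1.33 and 6.51 FPKM in young and 23.6, 7.26 and 12.4 FPKM in old cells (adjusted p = 0.0781 and 0.148). Neither passed, although in each the ages did not overlap.

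Genes of membrane traffic and of protein turnover were also called. Stxbp4, a syntaxin-binding protein of vesicle traffic, was among the called genes with the smallest spread, at 17.9, 15.9 and 16.5 FPKM in young and 34.5, 44.03 and 45.7 FPKM in old cells (log2 fold change 1.25 ± 0.23, adjusted p = 0.0386). Klhl11, an adaptor of cullin-3 ubiquitin ligases, stood at 0, 2.90 and 3.18 FPKM in young and 19.4, 15.98 and 13.97 FPKM in old cells (log2 fold change 2.77 ± 0.49, adjusted p = 0.0347). Young library 1 was listed at 0, and the other young libraries were low but measurable. The 1 gene that fell, Dtnbp1, encodes dysbindin, a subunit of the complex BLOC-1 that sorts cargo to lysosome-related organelles. It stood at 148, 164 and 152 FPKM in young and 71.9, 77.2 and 103 FPKM in old cells (log2 fold change -0.89 ± 0.16, adjusted p = 0.0409), with the highest old library below the lowest young one. Of 9 tested genes of BLOC-1 and its related complex, 6 were lower, among them Borcs8 at 74.9, 66.1 and 44.7 FPKM in young and 21.8, 37.1 and 37.4 FPKM in old cells (adjusted p = 0.22), while Bloc1s4 and Bloc1s6 had higher means in old cells (log2 fold changes 1.83 ± 0.73 and 1.06 ± 0.46, adjusted p = 0.304 and 0.336). The complex as a list thus had no common direction, and its median of -0.34 turned to 0.03 without young library 1, 0.13 without young library 3 and 0.49 without both libraries numbered 1.

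The guanylate-binding proteins (GBPs) and immunity-related GTPases are cell-autonomous defence proteins induced by interferon-gamma, and 2 of 12 tested members were called. Gbp4 stood at 1.62, 4.52 and 9.28 FPKM in young and 49.3, 40.8 and 26.98 FPKM in old cells (log2 fold change 2.88 ± 0.45, adjusted p = 0.0155) and Gbp6 at 0, 0.0597 and 6.36 FPKM in young and 29.9, 19.97 and 31.6 FPKM in old cells (log2 fold change 3.80 ± 0.66, adjusted p = 0.0346). Gbp2 stood at 34.6, 45.2 and 50.2 FPKM in young and 96.01, 98.8 and 56.8 FPKM in old cells and Igtp at 1.24, 29.4 and 26.4 FPKM in young and 54.2, 85.8 and 49.1 FPKM in old cells (adjusted p = 0.163 and 0.202). In these 4 genes every old library was above every young one, which is 33.3% of the list against 10.5% of tested genes. The remaining members did not separate, with log2 fold changes from -0.47 ± 0.31 for Irgm1 to 0.76 ± 0.52 for Gbp8, and the median of the list was 0.50. This median was 0.12 without young library 2, 0.33 without old library 2, 0.87 without young library 1 and 1.01 without both libraries numbered 1. Gbp4 and Gbp6 are related genes on chromosome 5, from 105115767 to 105139586 and from 105270702 to 105293698. No source used here says how reads shared between related genes were assigned. The wider list of interferon-stimulated genes had 15 of 25 members higher, none called and a median of 0.17, beside 0.16 for all tested genes, and the list median was 0.03 without young library 2 and 0.47 without young library 3. Rnf135, a ubiquitin ligase that acts in RIG-I signalling and is not on either list, was called, at 0, 0.978 and 0.0465 FPKM in young and 6.35, 11.6 and 7.17 FPKM in old cells (log2 fold change 2.84 ± 0.50, adjusted p = 0.0346).

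Promoters of 7 of the 12 tested GTPase genes were in the RefSeq table, and each of the 7 held an ISRE in its 200 bases, against 2.35% of 27025 promoters and 2.02% of those of tested genes. A GAS match was in 57.1% of the 7, against 5.5% of all promoters. The sequences of the 2 non-overlapping members with an entry are shown for these motifs, which may share bases with each other. They were chosen after their values were seen.
Gbp2 chr3:142620463-142620662 (plus strand): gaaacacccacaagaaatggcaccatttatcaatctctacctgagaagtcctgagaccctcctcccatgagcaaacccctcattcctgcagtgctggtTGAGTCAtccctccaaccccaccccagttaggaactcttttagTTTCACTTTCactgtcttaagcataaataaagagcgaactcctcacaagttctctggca
Igtp chr11:58199356-58199555 (plus strand): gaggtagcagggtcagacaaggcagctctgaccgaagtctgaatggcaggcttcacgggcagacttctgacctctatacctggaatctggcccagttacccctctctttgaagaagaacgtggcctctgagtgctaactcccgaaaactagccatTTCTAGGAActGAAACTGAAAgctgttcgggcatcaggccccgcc
Capitals mark an AP-1 match and an ISRE in Gbp2, the ISRE starting 59 bases before the start and lying on the opposite strand, and a GAS and an ISRE in Igtp, starting 45 and 34 bases before it. The other 5 promoters with an entry, all of members that did not separate between the ages, held the ISRE too. None of the 27 promoters of genes that rose held an ISRE, and Gbp4 and Gbp6 had no entry.

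Most antigen presentation genes had a higher mean in old Ly-HSCs, 7 of 9 tested genes in class II and 17 of 18 in class I, with 1 called in each. Over all tested genes 61.2% were higher and 0.368% were called higher. Every old library was above every young one in 55.6% of class II and 27.8% of class I genes, against 10.5% of tested genes. The reverse order held in 11.1% of class II genes, against 4.82% of tested genes. In class II, Cd74, the invariant chain that escorts the class II dimer, rose from 36.6, 38.4 and 47.4 FPKM in the young libraries to 175, 274 and 186 FPKM in the old (log2 fold change 2.33 ± 0.24, adjusted p = 0.00115), and it was the most abundant of the genes that rose by more than 2 on the log2 scale. The dimer chains did not pass. H2-Aa stood at 5.74, 2.97 and 13.3 FPKM in young and 69.97, 72.01 and 32.3 FPKM in old cells (log2 fold change 2.94 ± 0.74, adjusted p = 0.117), H2-Ab1 at 0, 1.40 and 26.7 FPKM in young and 60.5, 89.98 and 55.8 FPKM in old cells (log2 fold change 4.07 ± 0.87, adjusted p = 0.0806) and H2-Eb1 at 0, 0 and 16.5 FPKM in young and 41.7, 75.7 and 37.3 FPKM in old cells (log2 fold change 4.27 ± 1.04, adjusted p = 0.114). The old libraries were above the young in all 3 chains, and the young libraries ranged from 0 to 26.7 FPKM. Ciita, the activator of class II transcription, had the same order of libraries, at 0, 3.97 and 5.97 FPKM in young and 14.7, 8.77 and 7.07 FPKM in old cells (log2 fold change 1.72 ± 0.70, adjusted p = 0.312). H2-DMa, a chain of the peptide exchange factor of class II, had the opposite order, at 39.01, 49.1 and 46.8 FPKM in young and 32.6, 29.8 and 23.4 FPKM in old cells (log2 fold change -0.64 ± 0.32, adjusted p = 0.41). H2-DMb1, another chain of that factor, also had a lower mean but overlapped, at 62.7, 9.53 and 12.3 FPKM in young and 5.62, 17.9 and 15.3 FPKM in old cells (log2 fold change -0.71 ± 0.63, adjusted p = 0.663), and its direction turned without young library 1 (0.098). Over the 9 tested class II genes the mean log2(FPKM + 1) was 2.67, 3.03 and 3.67 in the young and 5.22, 5.10 and 4.73 in the old libraries.

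Of 18 tested class I genes, 17 were higher with age, at a smaller median of 0.35. H2-Q7, a nonclassical class I gene on chromosome 17 from 35439155 to 35443773, was called, at 142, 131 and 131 FPKM in young and 199, 267 and 241 FPKM in old cells (log2 fold change 0.79 ± 0.15, adjusted p = 0.041), and its neighbour H2-Q6 stood at 312, 410.0 and 445 FPKM in young and 533, 628 and 676 FPKM in old cells (log2 fold change 0.66 ± 0.15, adjusted p = 0.0924). The immunoproteasome subunit Psmb8 was close to even among the old libraries, at 55.5, 42.8 and 37.9 FPKM in young and 84.6, 85.9 and 84.99 FPKM in old cells (log2 fold change 0.91 ± 0.21, adjusted p = 0.0969). H2-T23, the mouse Qa-1 antigen, stood at 87.2, 97.5 and 77.1 FPKM in young and 116, 134 and 132 FPKM in old cells (adjusted p = 0.163). None of these 3 passed, and in each the old libraries were above the young. All 18 were above 0 in all 6 libraries, 12 of them at 20 FPKM or more, and all of those 12 were higher in the mean of old cells. Of all 1870 tested genes at that level, 799 were higher. Reads of the H2-Q genes may be shared between near-identical copies.

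Most mitotic genes were low in young Ly-HSCs and had a higher mean in old ones. Hmmr, a spindle protein that also binds hyaluronan, was the 1 called member of the list of mitosis and spindle genes, at 0, 1.02 and 1.51 FPKM in young and 41.7, 16.5 and 6.45 FPKM in old cells (log2 fold change 3.37 ± 0.62, adjusted p = 0.0386). Ncaph, a condensin subunit that compacts mitotic chromosomes, was called outside the list, at 0, 1.17 and 0.0893 FPKM in young and 10.9, 11.001 and 8.78 FPKM in old cells (log2 fold change 3.07 ± 0.52, adjusted p = 0.0313). Of 37 tested list members 35 had a higher mean in old cells, and in 15 every old library was above every young one (40.5%, against 10.5% of tested genes). This background share was higher at low levels. It was 12.3%, 15.7% and 16.8% for tested genes averaging 5 to 10, 2 to 5 and under 2 FPKM over all 12 libraries. The median log2 fold change of the mitotic list was 1.67, and 0.85 over the 19 members above 0 in all 6 libraries. Spc25 of the outer kinetochore stood at 0.0886, 3.00 and 0 FPKM in young and 8.57, 12.9 and 5.39 FPKM in old cells and the microtubule depolymerase Kif2c at 0, 0 and 0.808 FPKM in young and 3.67, 5.42 and 5.20 FPKM in old cells, while the chromokinesin Kif4 stood at 0, 0.693 and 1.10 FPKM in young and 22.4, 11.3 and 7.67 FPKM in old cells (adjusted p = 0.0921, 0.116 and 0.136). The DNA replication list was less displaced, with 30 of 36 higher, 4 without overlap (11.1%, against 10.5% of tested genes) and a median of 0.44, and none was called. Its median was 0.19 without young library 1 and, without both libraries numbered 1, 0.20 with 24 of 36 higher.

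The mitotic mean was 1.34, 2.22 and 2.01 in the young and 3.97, 3.64 and 2.78 in the old libraries, on the log2 scale. Old library 1 was the highest and young library 1 the lowest, and the ages did not overlap. Without both libraries numbered 1, an alternative chosen after the data were seen, 32 of 37 members were higher and the median was 1.13. Old library 1 also had the highest sums of neutrophil, erythroid, monocyte, B cell and dendritic cell markers among the 6 libraries, though not of T and NK cell, megakaryocyte, mast cell and basophil or stromal and endothelial markers. The 4 of 14 neutrophil markers that are in the table summed to 1.79, 49.7 and 57.1 FPKM in the young and 329.9, 78.6 and 83.4 FPKM in the old libraries, and 7 of 12 erythroid markers to 0.562, 9.03 and 5.96 and 92.5, 18.1 and 7.32 FPKM. Of these, Itgam stood at 0.369, 14.2 and 32.9 FPKM in young and 160.0, 19.4 and 28.3 FPKM in old cells and Car1, listed at 0 in every young library, at 24.2, 5.87 and 1.37 FPKM in the old. The haptoglobin gene Hp stood at 0.101, 0.51 and 0 FPKM in young and 133, 1.22 and 2.44 FPKM in old cells. In all 3 genes old library 1 was the highest by far. Of 10 B cell markers, 7 in the table summed to 0.114, 7.60 and 18.2 FPKM in the young and 23.7, 16.5 and 6.17 FPKM in the old, with Ms4a1 at 0.0643 FPKM or less in every library. The T and NK cell markers summed to 38.5, 23.2 and 24.5 FPKM in the young and 19.3, 14.4 and 17.5 FPKM in the old, where every old library was below every young one, and the megakaryocyte markers to 324, 239 and 244 FPKM and 229, 291 and 237 FPKM, where old library 1 was the lowest. The lineage antibodies named in the labels include none to CD11b, the product of Itgam. The part of such cells in the mitotic values was not tested. In bulk RNA, a change in the number of cells of a type and a change of RNA per cell cannot be told apart.

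The promoter of Hmmr is shown because CCAAT boxes, known from cell-cycle promoters, were common in this list, being in 74.2% of the 31 mitotic promoters with an entry, against 29.8% of all promoters and 33.2% of those of tested genes. The gene was chosen for display after its values were seen.
Hmmr chr11:40733438-40733637 (minus strand): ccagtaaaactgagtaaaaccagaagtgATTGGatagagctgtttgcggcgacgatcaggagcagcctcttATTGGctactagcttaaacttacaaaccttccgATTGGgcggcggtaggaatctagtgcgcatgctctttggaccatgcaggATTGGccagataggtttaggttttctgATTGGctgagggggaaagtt
Capitals mark 5 CCAAT boxes, each on the opposite strand of the gene, starting 172, 129, 96, 47 and 20 bases before the start. No TATA box and no ISRE was found in the 31 mitotic promoters.

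Genes of stress signalling and of metabolism followed in smaller steps. Gadd45b, a stress-inducible activator of p38 and JNK kinases, rose, at 0, 1.83 and 0 FPKM in young and 14.95, 7.17 and 18.1 FPKM in old cells (log2 fold change 3.26 ± 0.50, adjusted p = 0.0154). Of 11 tested members of its list, 10 were higher, with a median of 0.79. The median was 0.24 without young library 1 and 1.27 without young library 3, and without both libraries numbered 1 it was 0.44 with 6 of 11 higher. Ddit4, an inhibitor of mTORC1, stood at 0, 5.16 and 2.68 FPKM in young and 8.97, 18.01 and 9.70 FPKM in old cells, the AP-1 subunit Junb at 95.6, 193 and 141 FPKM in young and 267, 210.2 and 239.6 FPKM in old cells and Ddit3, a factor of the endoplasmic reticulum stress response, at 37.1, 35.7 and 23.3 FPKM in young and 47.5, 43.6 and 51.1 FPKM in old cells (adjusted p = 0.201, 0.223 and 0.279). Of 52 tested nuclear genes of oxidative phosphorylation 42 were higher and none was called, with a median of 0.47 and 15.4% without overlap, all higher in old cells, against 10.5% of tested genes. Without both libraries numbered 1, 34 of the 52 were higher and the median was 0.22. Uqcrq, a subunit of respiratory complex III, stood at 3.65, 12.7 and 12.98 FPKM in young and 26.1, 19.3 and 25.4 FPKM in old cells (adjusted p = 0.176). Lyrm2, a mitochondrial LYR motif protein, was called (log2 fold change 3.20 ± 0.61, adjusted p = 0.0433). Among FoxO factors and antioxidant enzymes 13 of 24 were higher, with a median of 0.17, which was 0.04 without old library 1, 0.08 without young library 2, 0.09 without young library 3 and 0.26 without young library 1. The quinone reductase Nqo1 stood at 0, 1.00 and 0.0654 FPKM in young and 10.6, 6.07 and 5.23 FPKM in old cells, and Nfe2l2, which encodes the factor NRF2 that activates it, at 34.1, 26.05 and 14.1 FPKM in young and 60.1, 37.5 and 46.5 FPKM in old cells (adjusted p = 0.0924 and 0.18). The mitochondrial peroxiredoxin Prdx5 stood at 3.18, 22.4 and 13.04 FPKM in young and 65.3, 36.7 and 29.9 FPKM in old cells (adjusted p = 0.153). In these 3 the old libraries were above the young, and none passed.

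Genes listed as raised in aged stem cells behaved in Ly-HSCs as follows, though this list was assembled with the literature on ageing in view and is no independent evidence of direction. Of 42 with a value, 33 were tested, 31 were higher, 7 were called and 16 had every old library above every young one. Over all tested genes 61.2% were higher, 0.368% were called higher and 10.5% had every old library above. The median log2 fold change was 1.55, and 1.10 over all 42 including those under the filter. The mean was 1.94, 2.22 and 2.31 in the young and 3.63, 3.72 and 3.78 in the old libraries. The called members were Rorb, Gda, Sult1a1, Bmpr1a, Sdpr, Aldh1a1 and Plscr2. Among the others Selp, the platelet and endothelial adhesion molecule P-selectin, stood at 1.08, 7.62 and 11.8 FPKM in young and 25.5, 39.7 and 45.5 FPKM in old cells (log2 fold change 2.59 ± 0.60, adjusted p = 0.102). Ehd3, an endocytic recycling ATPase, stood at 0, 1.10 and 8.04 FPKM in young and 16.8, 15.7 and 10.6 FPKM in old cells and the growth hormone receptor Ghr at 0, 1.94 and 0.909 FPKM in young and 3.61, 4.38 and 5.86 FPKM in old cells (adjusted p = 0.114 and 0.176). Integrin beta 3, encoded by Itgb3, stood at 11.8, 2.37 and 7.12 FPKM in young and 15.7, 27.2 and 13.5 FPKM in old cells (adjusted p = 0.22). These 4 had no overlap between the ages and did not pass. Of the 2 members with a lower mean, Mllt3, described below, had every old library below every young one, and the ages overlapped in the other.

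**Figure D2:**
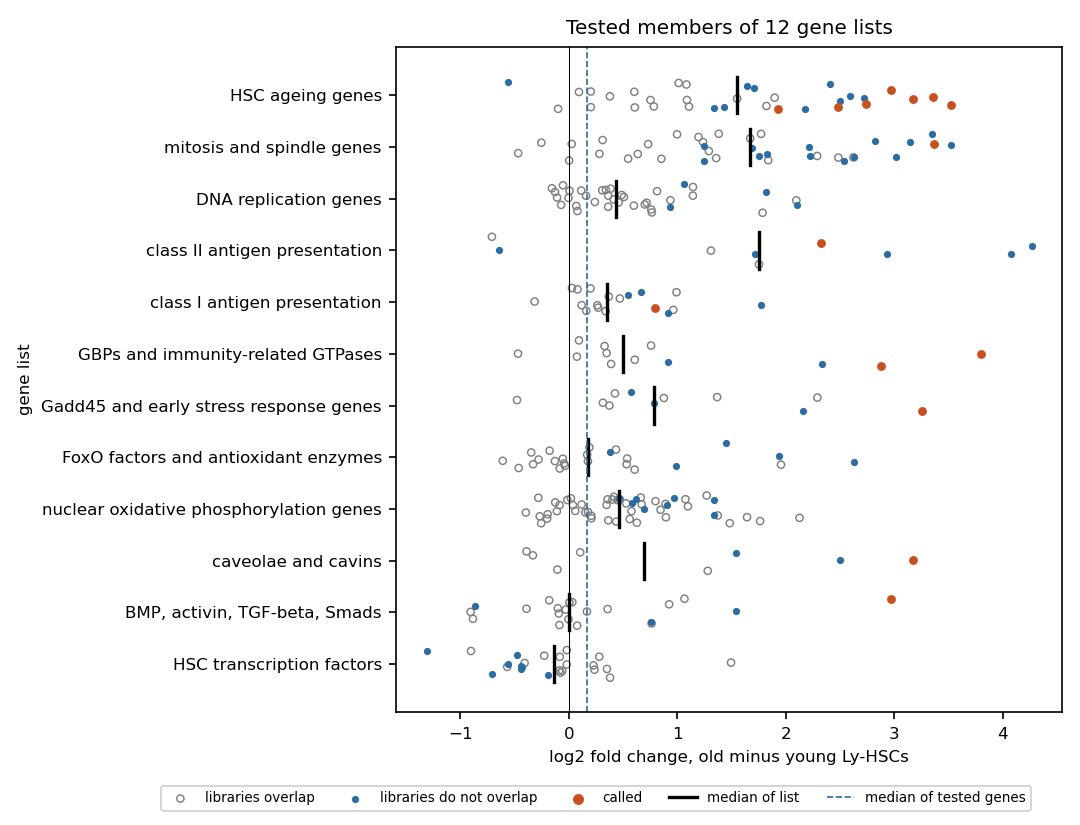
Log2 fold change, old minus young Ly-HSCs, of each tested member of 12 gene lists, with called genes in orange, other genes whose libraries do not overlap in blue and the rest as open circles. Black bars mark list medians, from -0.14 for HSC transcription factors to 1.75 for class II antigen presentation, and the dashed line the median of 0.16 over all tested genes.

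Transcription factors of stem cell identity lay on the other side. Of 24 tested, 18 had a lower mean in old cells and none was called. In 8 of the 24 (33.3%) every old library was below every young one, against 4.82% of tested genes and 9.63% of the 1870 genes of at least 20 FPKM in each Ly-HSC library, and in none was the order reversed. Mycn, a MYC family factor, stood at 94.5, 58.1 and 61.2 FPKM in young and 9.23, 47.9 and 44.8 FPKM in old cells (log2 fold change -1.31 ± 0.52, adjusted p = 0.294). Hoxa9, a homeobox factor of stem cell expansion, stood at 75.5, 60.5 and 54.4 FPKM in young and 38.6, 31.7 and 45.5 FPKM in old cells (log2 fold change -0.71 ± 0.25, adjusted p = 0.241). Mllt3, a chromatin reader that maintains stem cells, stood at 36.6, 33.9 and 30.3 FPKM in young and 23.4, 20.9 and 22.8 FPKM in old cells (log2 fold change -0.56 ± 0.19, adjusted p = 0.223), and Hlf, a stem cell bZIP factor, at 127, 165 and 120.1 FPKM in young and 81.3, 118 and 104 FPKM in old cells (log2 fold change -0.44 ± 0.19, adjusted p = 0.338). Among these 4 only Mycn differed by more than 1 on the log2 scale, and in it old library 1 was far below the other old libraries. Prdm16, needed for stem cell maintenance, overlapped by a narrow margin, at 24.1, 38.5 and 19.2 FPKM in young and 8.76, 19.3 and 14.4 FPKM in old cells (log2 fold change -0.90 ± 0.31, adjusted p = 0.226). The list median was -0.14, -0.09 after quantile normalization, -0.04 without young library 1, -0.32 without young library 3, -0.26 without old library 2 and 0.06 without both libraries numbered 1, which turns its direction.

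Stem cell markers showed a like order, with 8 of 12 tested markers lower in the mean. In 7 every old library was below every young one (58.3%, against 4.82% of tested genes and 9.63% of the 1870 abundant ones). The 7 include Hlf and Mllt3, already counted among the transcription factors above, so the lists are not separate. Fgd5, a Cdc42 exchange factor used as a stem cell reporter, stood at 42.9, 42.4 and 38.1 FPKM in young and 23.7, 25.5 and 25.1 FPKM in old cells (log2 fold change -0.71 ± 0.17, adjusted p = 0.106). Esam, an endothelial and stem cell adhesion molecule, stood at 39.9, 40.1 and 48.9 FPKM in young and 18.2, 34.3 and 36.7 FPKM in old cells (adjusted p = 0.437), and Ctnnal1, the source of the alpha-catulin reporter, at 14.7, 9.80 and 13.4 FPKM in young and 8.63, 7.92 and 6.74 FPKM in old cells (adjusted p = 0.411). None passed. In Fgd5 the libraries of each age lay close together. The opposite was seen for Ly6a, which encodes the sort antigen Sca-1 and rose, at 3.83, 3.15 and 1.24 FPKM in young and 52.2, 30.4 and 11.7 FPKM in old cells (log2 fold change 2.96 ± 0.55, adjusted p = 0.0409). The markers Slamf1, Tek and Procr also had higher means in old cells (log2 fold changes 0.78 ± 0.52, 0.69 ± 0.44 and 0.16 ± 0.33). In these the ages overlapped, and they did not pass. The 13 markers in the table summed to 656, 664 and 527 FPKM in the young and 457, 526 and 483 FPKM in the old libraries, so that the labelled cell type was present in all 6.

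**Figure D3:**
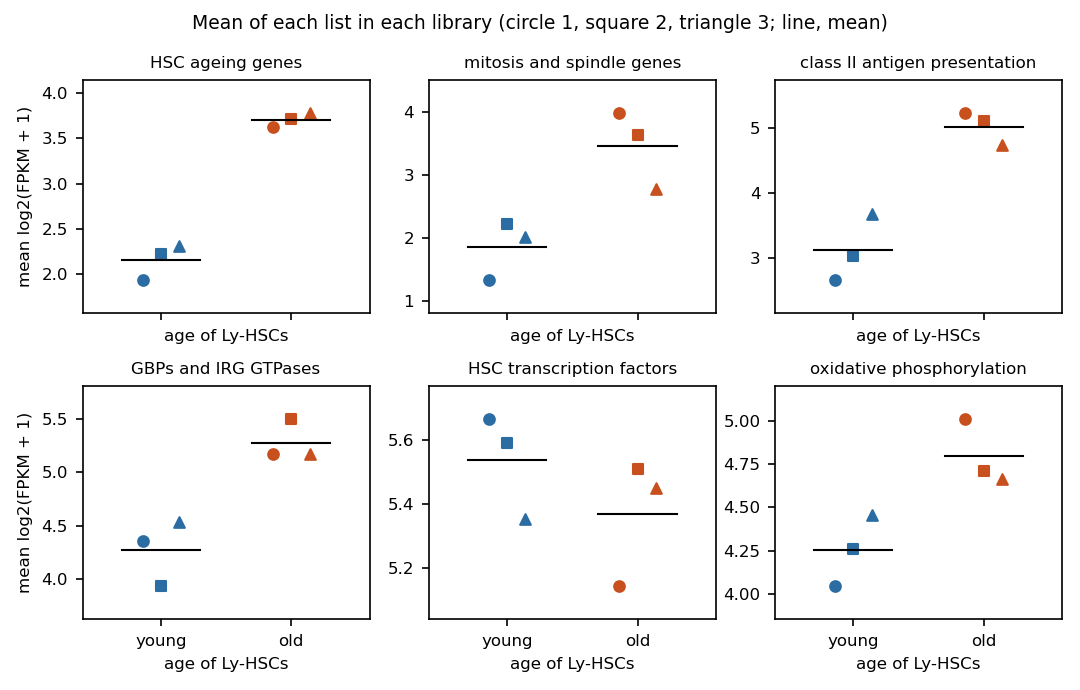
Mean log2(FPKM + 1) over the tested members of 6 gene lists in each Ly-HSC library, young in blue and old in orange, with the group mean as a line. The ages do not overlap for the lists of ageing, mitosis, class II, GTPase and oxidative phosphorylation genes, nor do they for the mean of all tested genes (3.36 to 3.67 in young and 3.74 to 3.86 in old libraries, not drawn), and they overlap for HSC transcription factors, where old library 1 is the lowest at 5.14.

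Below the threshold, the lower side was led by genes of signalling, membrane and transcription, each with adjusted p between 0.0865 and 0.124. Klhl28, a Kelch protein, stood at 13.03, 10.03 and 13.4 FPKM in young and 0.223, 3.44 and 1.79 FPKM in old cells (log2 fold change -2.40 ± 0.52, adjusted p = 0.0865). Slc26a11, an anion transporter, stood at 19.2, 19.8 and 24.2 FPKM in young and 5.40, 4.75 and 5.20 FPKM in old cells (log2 fold change -1.85 ± 0.45, adjusted p = 0.115). Both ages were narrow for this transporter. Pip4k2b, a phosphatidylinositol 5-phosphate kinase, stood at 35.01, 33.01 and 34.02 FPKM in young and 18.6, 16.9 and 17.2 FPKM in old cells (log2 fold change -0.92 ± 0.21, adjusted p = 0.099), with little spread within each age. Tsta3, which makes GDP-fucose, stood at 91.6, 55.9 and 43.1 FPKM in young and 15.3, 21.2 and 21.1 FPKM in old cells (log2 fold change -1.62 ± 0.41, adjusted p = 0.117). Snx32, a sorting nexin, stood at 39.1, 27.8 and 38.4 FPKM in young and 12.4, 8.27 and 15.8 FPKM in old cells and Tbc1d20, a Rab GTPase-activating protein, at 28.8, 22.4 and 26.8 FPKM in young and 6.56, 12.5 and 10.9 FPKM in old cells (adjusted p = 0.116 and 0.117). Cdk13, a kinase of transcription elongation, stood at 87.02, 70.6 and 74.7 FPKM in young and 46.2, 46.7 and 44.7 FPKM in old cells and Arid4a, a retinoblastoma-binding protein, at 242, 208 and 218 FPKM in young and 158, 149 and 151 FPKM in old cells (adjusted p = 0.116 and 0.117). The insulin-degrading enzyme gene Ide stood at 71.5, 34.7 and 67.2 FPKM in young and 24.03, 24.8 and 27.6 FPKM in old cells, and Dennd1c, an activator of Rab GTPases, at 138, 154 and 153 FPKM in young and 72.4, 106 and 95.4 FPKM in old cells (adjusted p = 0.114 and 0.114). In all 10 the ages did not overlap and none passed. The 10 were picked by the p-value of this same age difference, so their lack of overlap is no separate evidence. Over all tested genes, 4.82% had every old library below every young one.

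Abundant genes, which hold no listed zeros themselves, leaned to the lower side. The part in this of scaling to the total of the library was not tested. Of the 1870 genes of at least 20 FPKM in each Ly-HSC library 799 had a higher mean with age, and the median difference was -0.06 on the log2 scale. Every old library was above every young one in 119 (6.36%) and below in 180 (9.63%). On the higher side Plek, or pleckstrin, a protein kinase C substrate of platelets and leukocytes, rose, at 32.4, 22.6 and 34.1 FPKM in young and 112, 76.5 and 61.5 FPKM in old cells (log2 fold change 1.44 ± 0.28, adjusted p = 0.0471). Myl10, a myosin light chain, stood at 72.5, 53.1 and 20.9 FPKM in young and 218, 122 and 181 FPKM in old cells and Cd274, which encodes PD-L1, at 22.3, 38.2 and 25.3 FPKM in young and 54.9, 55.9 and 55.7 FPKM in old cells (adjusted p = 0.195 and 0.202). Snx6, a retromer sorting nexin, stood at 37.3, 24.96 and 27.8 FPKM in young and 66.9, 49.4 and 58.99 FPKM in old cells (adjusted p = 0.0969). On the lower side the homeobox gene Hoxa7 stood at 98.1, 93.3 and 112 FPKM in young and 48.4, 45.7 and 63.4 FPKM in old cells, next to its relative Hoxa9 above (adjusted p = 0.181). Fcho1, an initiator of clathrin-coated pits, stood at 85.4, 87.97 and 93.1 FPKM in young and 45.8, 45.4 and 52.9 FPKM in old cells, and Med12, of the Mediator kinase module, at 69.8, 71.3 and 75.3 FPKM in young and 23.4, 51.996 and 52.4 FPKM in old cells (adjusted p = 0.161 and 0.195). All of these except Plek failed the threshold.

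The excess of higher genes came with low expression. With age 61.2% of all tested genes lay higher, by 0.16 at the median, and this share fell from 73.0% of genes with a mean under 2 FPKM to 50.9% of those at 50 FPKM or more. The median was 0.44 in the first of these groups and 0.0095 in the last. Some 167 tested genes reached 1 FPKM in all 3 libraries of 1 age and in none of the other, 164 of them in old and 3 in young cells. Each of the 167 was tested only because of its level in the age where it was high. With no filter on low values the median over all genes was 0.118, and 26 genes were called, 17 of them among the 38. The share of zeros differs between the ages in the same direction, and its part in the low genes was not tested beyond the covariate above. After quantile normalization the median was 0.019, 51.6% of tested genes were higher, 17 genes were called, all among the 38, and non-overlapping genes numbered 759 higher and 700 lower in place of 1057 and 485. With median-of-ratios scaling they numbered 889 and 644.

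**Figure D4:**
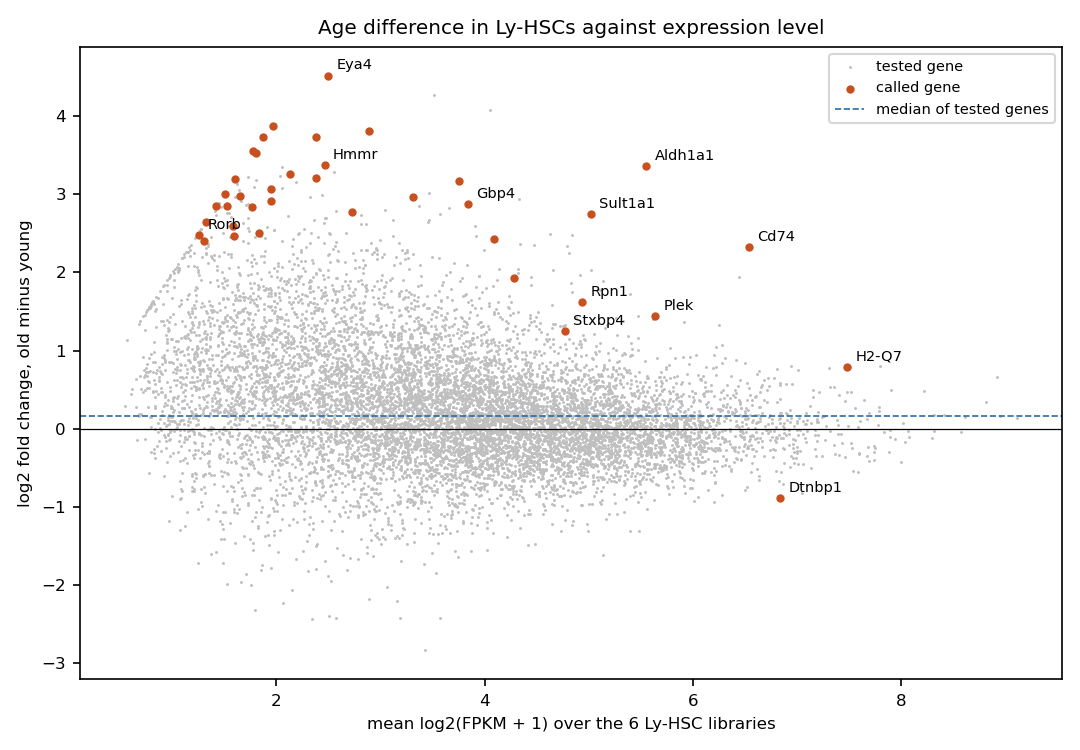
Log2 fold change, old minus young Ly-HSCs, of the 10067 tested genes against their mean log2(FPKM + 1) over the 6 libraries, with the 38 called genes in orange. Grey points spread widest and lie mostly above 0 at low levels, and the dashed line marks the median of 0.16.

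The age difference was set beside that in My-HSCs through the interaction, which is the My-HSC age difference minus the Ly-HSC one. No gene passed (0% of 10067, by limma, with 557 at an unadjusted p under 0.05 and a smallest adjusted p of 0.533), so no called gene was shown to be particular to Ly-HSCs. Of the 37 genes that rose, 32 had a positive log2 fold change in My-HSCs. The others included Zfp456, Ncaph, Lyrm2 and Zfp92. In these 4 and in Gadd45b and Cept1, young My-HSCs had a higher mean than young Ly-HSCs. Gadd45b stood at 13.1, 17.1 and 16.6 FPKM in young and 22.04, 11.8 and 16.9 FPKM in old My-HSCs (interaction -3.18 ± 0.71, adjusted p = 0.724). Ncaph stood at 6.82, 6.65 and 5.28 FPKM in young and 11.8, 3.53 and 3.07 FPKM in old My-HSCs (interaction -3.29 ± 0.74, adjusted p = 0.724). Cept1 stood at 13.6, 8.64 and 9.73 FPKM in young and 15.2, 15.1 and 14.6 FPKM in old My-HSCs (interaction -3.26 ± 0.66, adjusted p = 0.724). Zfp456 had the smallest interaction p, and was higher in young than in old My-HSCs, at 10.1, 14.2 and 10.9 against 6.73, 3.48 and 5.25 FPKM (interaction -3.66 ± 0.62, adjusted p = 0.533). The same reversal, without overlap in either fraction, was seen for Slfn9, a schlafen family gene, at 11.02, 20.98 and 24.2 FPKM in young and 37.05, 42.1 and 42.9 FPKM in old Ly-HSCs and 54.3, 45.6 and 47.01 FPKM in young and 22.96, 37.9 and 23.1 FPKM in old My-HSCs (interaction -1.96 ± 0.41, adjusted p = 0.724). Rorb, Bmpr1a and Chrm3 moved alike in size, with My-HSC log2 fold changes of 3.10 ± 0.42, 2.87 ± 0.44 and 2.59 ± 0.43 beside 2.48 ± 0.42, 2.97 ± 0.44 and 3.19 ± 0.43 in Ly-HSCs.

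**Figure D5:**
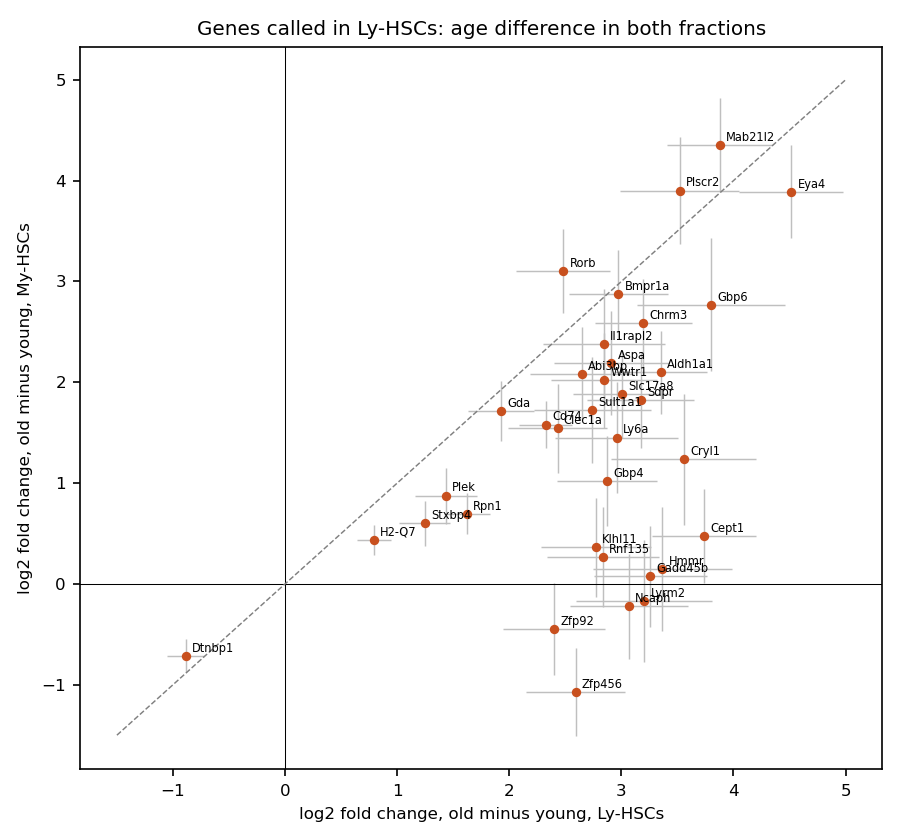
Log2 fold change, old minus young, of the called genes named in the text, in Ly-HSCs (horizontal) and in My-HSCs (vertical), with standard errors and a dashed line of equal change. Genes such as Rorb and Mab21l2 lie near the line, while Gadd45b, Ncaph and Hmmr lie near 0 in My-HSCs and Zfp456 lies below it.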

How the data were processed

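RNA was extracted from sorted stem cells, and libraries were made with a stranded mRNA kit and read as paired ends, per the labels' protocols. The authors deposited FPKM per gene and library. Per the submitters' processing notes, STAR, DESeq2 and bcl2fastq 2.17 were used with the build GRCm38 (mm10), in steps that are not specified. No source used here gives the annotation, gene filter or rule for multi-mapped reads. Of 14143 genes, 14139 matched GENCODE M21 by identifier. None of the 79 cytosolic ribosomal protein genes listed was found by symbol in the deposited values, so they could not be analysed.

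Values were tested as log2(FPKM + 1) for genes of at least 1 FPKM in 3 or more of the 6 Ly-HSC libraries. The model, from limma 3.58.1 (R 4.3.3), had 1 mean per group over the 12 libraries, a trended prior variance, 8 residual and 5.03 prior degrees of freedom. Tests were two-sided. The script was tested on simulated data. Depth could not be settled, since 2 estimates from the steps of low values differed by over 1.5 times in 7 of 12 libraries, so the share of zeros served as the covariate. Alternatives were other pseudocounts, filters, scalings, weights and leave-outs. Replicate numbers did not pair the libraries.

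The libraries compared, the gene lists and the rule for named genes were chosen with earlier results of these data known. The rule took all called genes, the 15 smallest p-values among lower genes, the 12 largest non-overlapping differences in each direction among genes of at least 20 FPKM, up to 4 genes per list (every tested member of lists of up to 12) and the 5 smallest interaction p-values. Some genes that the rule takes are not reported here. Car1, Ms4a1, Ctnnal1, Esam, Gbp8, Hlf, Irgm1, Procr, Slamf1 and Tek were named after their values were seen.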

Additional observations from a re-analysis of the deposited data

Results flagged for a closer look

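Zfp456, Slfn9 and H2-DMa moved in opposite directions with age in the 2 fractions, with no overlap between the ages in either. The interaction, My-HSC minus Ly-HSC age difference, was -3.66 for Zfp456, -1.96 for Slfn9 and 1.67 for H2-DMa on the log2 scale, and none passed (adjusted p = 0.533, 0.724 and 0.724 by limma). With groups of 3, no search for single outlying libraries was made.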

How the results depend on the processing

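The count of 38 called genes was 9 among genes above 0 in all 6 Ly-HSC libraries, 17 after quantile normalization, 7 with 1 weight per group, 0 with the share of genes at 0 as a covariate, 0 with the 6 Ly-HSC libraries alone and 20 without both libraries numbered 1, which was chosen after seeing the data. Leaving out 1 library gave 7 to 247. Same-numbered libraries did not deviate together (r of -0.028 to 0.007), and a replicate block gave 15 called genes. The cause of these shifts was not tested. The count was 26 to 40 with the other pseudocount, no filter, the filter over 12 libraries, median-of-ratios scaling, TPM and the robust prior. The interaction gave 6 genes without a filter and 0 otherwise. Non-overlapping genes numbered 1226 to 1742. No called gene named here changed direction under any alternative run, and the called genes not named were not checked for this. The log2 fold change of H2-DMb1, which was not called, ranged from -1.20 to 0.098 when 1 library was left out and was 0.57 without both libraries numbered 1, so its direction turned. Low genes are limited by an unknown depth.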
